A study of Canis lupus familiaris with 6 samples.

Results

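ATP1B1 and FXYD1 are a subunit and a regulator of the sodium pump (Na+/K+-ATPase). They were followed in left ventricle through every probe set of the array whose annotation gives exactly 1 symbol, ATP1B1 or FXYD1. This gave 3 probe sets for 2 genes, 1 for ATP1B1 and 2 for FXYD1, among 42924 probe sets and 15115 genes with 1 symbol. RNA came from frozen left ventricle of 6 dogs, with 1 Affymetrix canine array per dog. Control 1 was a male Labrador retriever aged 12 years, control 2 a female St. Bernard aged 10 and control 3 a male Greater Swiss Mountain dog aged 4. All affected dogs were Great Danes whose hearts are labelled as diseased, with cardiomyopathy: affected 1 was a female aged 9 and affected 2 and affected 3 were males aged 7. Breed and disease cannot be told apart in this design.

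The sodium pump exports sodium and imports potassium across the plasma membrane of the heart muscle cell, at the cost of ATP. It is the target of cardiac glycosides. Its beta subunit, of which ATP1B1 is the main form in heart, is a glycoprotein needed for folding and delivery of the pump to the membrane. FXYD1, or phospholemman, is a small membrane protein that restrains the pump until it is phosphorylated by protein kinase A or C. By setting the sodium gradient, the pump also governs how much calcium the sodium-calcium exchanger removes.

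Values are on the log2 scale and centred, so that 0 is the middle of the 6 dogs for that probe set, and levels of different genes cannot be compared. In bulk tissue, fewer cells of a type and less RNA per cell cannot be told apart. The 12 cardiomyocyte markers sought were all measured, but their levels cannot be read from centred values. Of their 46 probe sets, 3 followed the array's 17 control probe sets for unexpressed tags at a Pearson correlation over 0.9 across the 6 arrays, as did 37.5% of the probe sets of all genes with 1 symbol. Array medians ran from -0.03 to 0.09, with the 3 controls above the 3 affected arrays, and the median difference over all probe sets was -0.08. Over all probe sets, 1 passed a limma adjusted p of 0.05, which is 0.00233% of those tested, and it carried no symbol.

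ATP1B1 did not differ detectably between affected and control ventricles. Its values were 0.16, -0.04 and -0.10 on control 1 to control 3 and 0.04, 0.16 and -0.32 on affected 1 to affected 3. The groups overlapped throughout: control 1 and affected 2 shared the top of the range, and affected 3 was the lowest dog. The mean was 0.01 ± 0.14 (SD, n = 3) in controls and -0.04 ± 0.25 (SD, n = 3) in affected dogs. The difference, affected minus control, was -0.05 on the log2 scale (SE 0.15, 95% interval -0.43 to 0.34, limma adjusted p = 0.828), and it was 0.03 when each array was centred on its median. As a ratio this is 0.967-fold, with an interval from 0.741-fold to 1.26-fold. An exact permutation test over the 6 arrays, two-sided, gave p = 0.9, where 3 dogs against 3 cannot go below 0.1. The direction rested on single dogs, since the difference was 0.09 without affected 3 and 0.03 without control 1.

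FXYD1 was higher in 2 of the 3 affected dogs, and the difference between the groups did not pass the test. In its first probe set, whose name ends in S1_s_at, the values were -0.08, -0.05 and 0.05 on control 1 to control 3 and -0.13, 0.17 and 0.31 on affected 1 to affected 3. In its second, ending in A1_s_at, they were -0.05, -0.05 and 0.04 on the controls and -0.04, 0.21 and 0.32 on the affected arrays. Affected 2 and affected 3 thus lay above every control in both probe sets, while affected 1 lay among or below the controls. The first probe set had means of -0.03 ± 0.07 (SD, n = 3) in controls and 0.12 ± 0.22 (SD, n = 3) in affected dogs. The second had -0.02 ± 0.05 (SD, n = 3) and 0.16 ± 0.19 (SD, n = 3). In both, the affected dogs were spread more widely than the controls.

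The first FXYD1 probe set differed by 0.14 on the log2 scale (SE 0.12, 95% interval -0.18 to 0.46, limma adjusted p = 0.426, exact permutation p = 0.4). The second differed by 0.18 (SE 0.11, 95% interval -0.09 to 0.45, limma adjusted p = 0.296, exact permutation p = 0.2). These are ratios of 1.10-fold and 1.14-fold, and neither interval reached beyond 1.38-fold. The probe sets gave nearly the same reading, with a largest gap of 0.09 on any array, seen on affected 1. The suffix of their names marks probes that can match more than 1 transcript, and they may share target sequence, so they are not separate measurements of the gene. Without affected 1 the differences were 0.26 and 0.29 (limma adjusted p = 0.493 in both, unadjusted p = 0.029 and 0.0149), and without affected 3 they were 0.05 and 0.10.

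**Figure D1:**
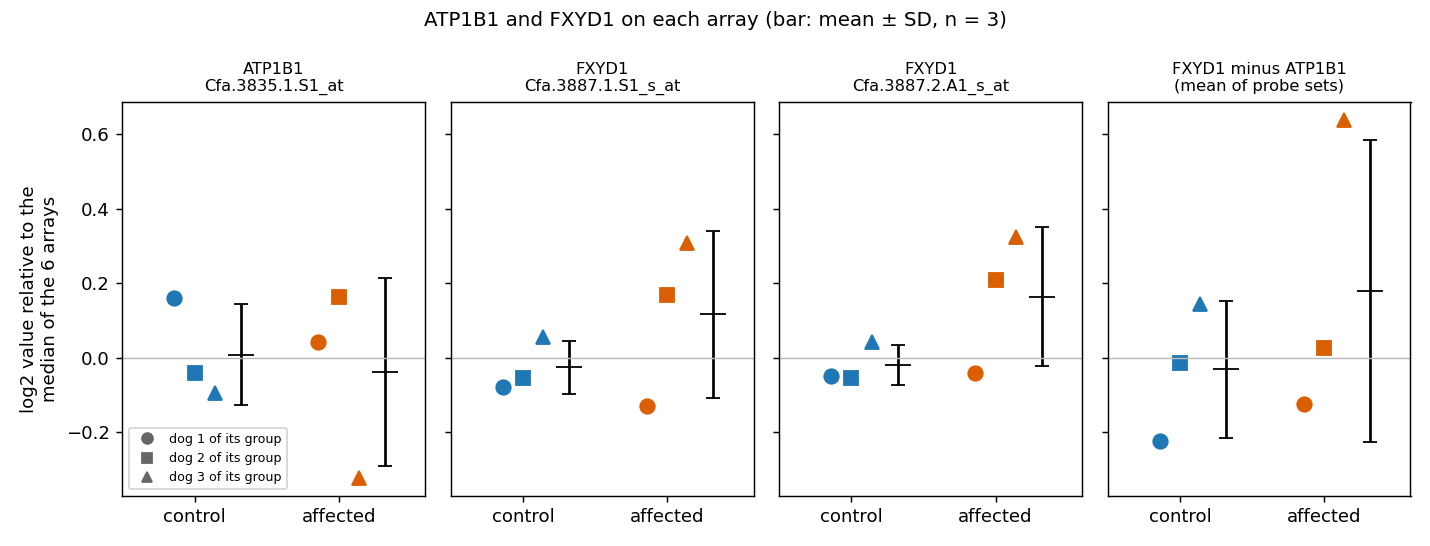
Values of the ATP1B1 probe set, both FXYD1 probe sets and the within-array difference FXYD1 minus ATP1B1 (vertical axis, log2 relative to the median of the 6 arrays) in control and affected dogs. Each marker is 1 dog and bars are mean ± SD (n = 3); the groups overlap in every panel, and affected 3 holds both the lowest ATP1B1 value, -0.32, and the highest FXYD1 values, 0.31 and 0.32.

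FXYD1 relative to ATP1B1 compares the regulator with the beta subunit within each dog and does not move with a shift of a whole array. With the mean of both FXYD1 probe sets, this log2 ratio was -0.22, -0.01 and 0.14 on control 1 to control 3 and -0.13, 0.02 and 0.64 on affected 1 to affected 3. Affected 3 stood above all other dogs, and the other affected dogs lay within the range of the controls. The mean was -0.03 ± 0.18 (SD, n = 3) in controls and 0.18 ± 0.41 (SD, n = 3) in affected dogs, a difference of 0.21 (exact permutation p = 0.6, two-sided). Without affected 3 the difference was -0.02.

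None of the 3 member probe sets separated the groups, while 52.2% of all probe sets did so, 46.9% with lower and 5.37% with higher values in affected dogs. At an unadjusted limma p under 0.05 the count was 0 of 3 members, against 10.9% of all probe sets. The range over the 6 dogs was 0.49 for ATP1B1 and 0.44 and 0.38 for FXYD1, from the 42.1 to the 49.5 percentile of all probe sets. The members therefore varied about as much as a typical probe set of the array. They did not follow the unexpressed tags, with correlations of -0.06 for ATP1B1 and -0.18 and -0.33 for FXYD1 over the 6 arrays.

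Markers of other cells and of RNA integrity also varied between the dogs. The median of the 12 cardiomyocyte markers was 0.02, -0.07 and -0.18 on control 1 to control 3 and -0.03, 0.05 and 0.10 on affected 1 to affected 3. It was highest on affected 2 and affected 3, as FXYD1 was. Of these 12 markers 10 were above 0 in the comparison, beside 34.97% of all genes with 1 symbol. Their median difference was 0.15, near that of FXYD1, and their part in the FXYD1 values was not tested. The difference between 3' and 5' beta-actin control probe sets, higher where RNA is more degraded, was 0.08, 0.11 and -0.34 on the controls and 0.31, -0.18 and 0.58 on the affected arrays. It was highest on affected 3, the dog with the lowest ATP1B1 and highest FXYD1, and its part in these values was not tested either. The same difference for GAPDH was -0.03 on affected 3, within the range of the controls, -0.14 to 0.15. Smooth muscle also makes FXYD1, and the median of its 6 markers was 0.17, -0.19 and 0.03 on the controls and 0.09, 0.09 and -0.27 on the affected arrays. It was lowest on affected 3, where FXYD1 was highest, and its part in the FXYD1 values was not tested.

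Of 15 genes in the list of pump subunits and FXYD proteins, 10 were measured, with 23 probe sets. The other 5 were not analysed here. None of the 23 probe sets passed the limma adjusted threshold, and 1 had an unadjusted p under 0.05, against 4.53% of all probe sets for higher and 6.32% for lower values. Among probe sets with 1 symbol, as those of the lists are, these shares were 4.79% and 5.72%. Over all probe sets the balance turned with the scaling, to 5.56% higher and 2.56% lower after median centring. It was 6.0% and 8.75% after quantile normalization. Of the 10 genes 3 were above 0 and 7 below, with a median of -0.07. Of all 15115 genes with 1 symbol, 5285 (34.97%) were above 0 and 9830 below, also with a median of -0.07. The family's lean to lower values was thus close to that of all genes. After centring each array on its median the list's median was 0.0050.

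Among the other beta subunits, ATP1B3, which also serves blood and immune cells, was measured by 5 probe sets that did not all move together. They differed by -0.56 to 0.04 between the groups (smallest limma adjusted p = 0.296). In the one at -0.08 the values were 0.98, -0.09 and -0.33 on control 1 to control 3 and 0.65, -0.41 and 0.09 on affected 1 to affected 3. This probe set was thus high in 1 dog of each group. Control 1 and affected 1 were also the highest of their groups in the probe sets at 0.04 and -0.10. A further one, at -0.16, followed the tags at 0.946. In the one with the largest difference, -0.56, the values were 0.67, -0.08 and 0.68 on the controls and 0.08, -0.27 and -0.22 on the affected arrays, so control 1 and control 3 were high instead. The median of 6 macrophage and monocyte markers was 0.69, -0.40 and -0.43 on the controls and 1.71, -0.18 and 0.09 on the affected arrays. It was highest on control 1 and affected 1, as in the probe sets at 0.04, -0.08 and -0.10 but not in those at -0.16 and -0.56. This was not particular to macrophage markers. The median of the atrial muscle markers, 2 of 4 measured, was 0.50, -1.16 and -0.28 on the controls and 1.64, -0.86 and 0.07 on the affected arrays. It too was highest on control 1 and affected 1. The part of either marker list in the ATP1B3 values was not tested. Measured as a range, ATP1B3 probe sets that did not follow the tags spread over 0.89 to 1.49 on the log2 scale, against 0.49 for ATP1B1.

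ATP1B2, the beta subunit of glia and neurons, differed by -0.16 to -0.08 over 3 probe sets, and ATP1B4, a muscle beta-like protein, by -0.16 and -0.09 over 2. All 5 followed the unexpressed tags, with correlations of 0.970 to 0.997. One ATP1B2 probe set turned to 0.02 after quantile normalization. ATP1A4, the catalytic subunit of sperm, had 2 probe sets under different gene records, at -0.25 and -0.42. The second held the only unadjusted p under 0.05 of the family (limma adjusted p = 0.296), and both followed the tags (0.943 and 0.936).

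Among the other FXYD genes, FXYD5 (dysadherin) and FXYD6, a regulator best known in nervous tissue, were above 0 in each of their probe sets without passing the test. FXYD5 differed by 0.27 (SE 0.19, limma adjusted p = 0.342), with 0.02, -0.02 and -0.51 on control 1 to control 3 and 0.12, -0.13 and 0.33 on affected 1 to affected 3. FXYD6 differed by 0.23 to 0.46 over 3 probe sets (smallest limma adjusted p = 0.413), and in the one with the largest difference control 3 was at -1.27 and the other dogs between -0.39 and 0.32. Control 3 was the lowest dog in FXYD5 and in 2 of the FXYD6 probe sets, while in the remaining one affected 3 stood alone at 0.78. The median of the fibroblast markers, 7 of 7 measured, was also lowest on control 3. It was -0.35, -0.12 and -1.71 on the controls and 1.09, 0.09 and 0.61 on the affected arrays. Among these markers PDGFRA was the exception, at 0.03 on control 3 and -0.12 on control 2, and it differed by -0.69 between the groups. The part of fibroblast markers in the FXYD5 and FXYD6 values was not tested. FXYD1 was not low on control 3, which was the highest control in both of its probe sets.

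FXYD2, the pump regulator of kidney tubules, had 2 probe sets that followed the tags, at -0.13 and -0.14, and another at 0.11 in which affected 3 reached 0.36. FXYD3, of epithelia, differed by -0.08. Within the family 10 of 23 probe sets followed the tags and 10 separated the groups, all as lower values in affected dogs, with 9 probe sets in both counts. That is 43.5% for each, beside 41.8% of all probe sets that followed the tags and 46.9% that separated the groups with lower values. Of the probe sets with 1 symbol, 37.5% followed the tags.

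**Figure D2:**
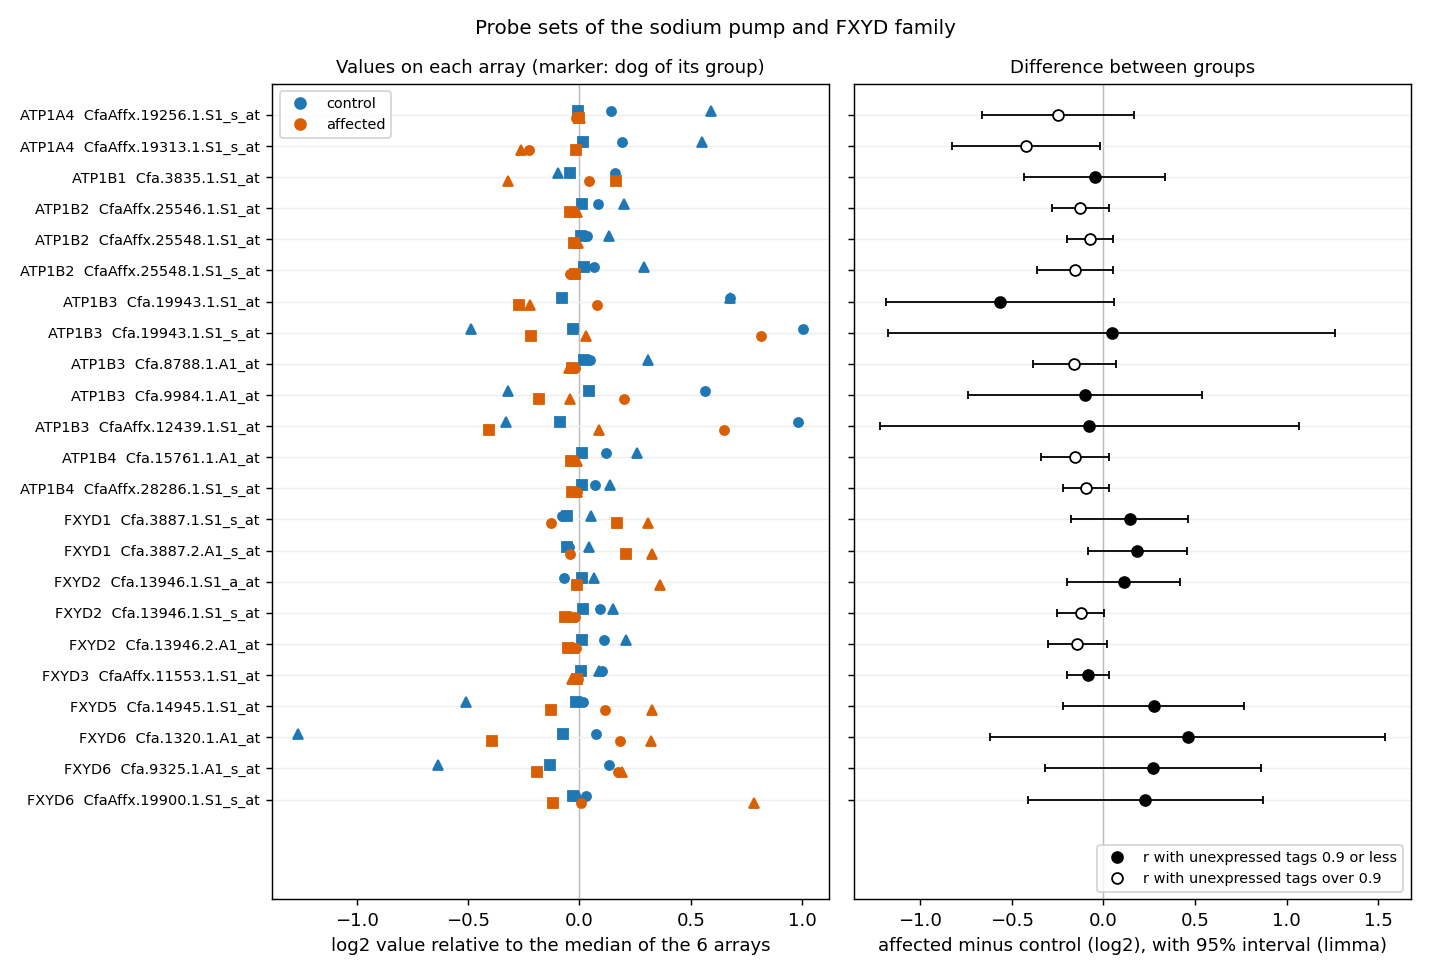
The 23 probe sets of the measured sodium pump and FXYD genes. Left, log2 values relative to the median of the 6 arrays, with 1 marker per dog (circle, square and triangle for dogs 1 to 3 of a group); right, affected minus control with the 95% interval from limma, open where the correlation with the unexpressed tags was over 0.9. Intervals of ATP1B1 and FXYD1 include 0, and the widest intervals are those of ATP1B3 and FXYD6.

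The wider pathway was followed through 4 further lists, and no gene in them passed the limma adjusted threshold. Sodium transporters, 24 of 26 measured, had a median of -0.14 with 4 genes (16.7%) above 0, beside 34.97% of all genes with 1 symbol. At an unadjusted p under 0.05, 8 of 56 probe sets were lower and 1 higher. For the transporters the share lower was 14.3%, against 6.32% of all probe sets and 5.72% of those with 1 symbol. Their count of lower probe sets was 5 after median centring, where 2.56% of all probe sets were lower. It was 12 after quantile normalization, where 8.75% of all were lower. Of the 56, 27 (48.2%) followed the tags, beside 41.8% of all probe sets and 37.5% of those with 1 symbol. SLC38A2, a sodium-coupled amino acid transporter, differed by -0.95 (SE 0.09, limma adjusted p = 0.296), with 0.37, 0.59 and 0.68 on the controls and -0.46, -0.39 and -0.37 on the affected arrays. SLC12A2, the sodium-potassium-chloride cotransporter, and SLC4A5, a sodium bicarbonate cotransporter, came next at -0.44 and -0.51 in their probe sets of smallest p, which followed the tags at 0.965 and 0.950.

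The phosphorylation list holds kinases and phosphatases that act on FXYD1 or the pump, together with their regulatory subunits and regulators. With 19 of 20 genes measured, its median was -0.10. At an unadjusted p under 0.05, 5 of 44 probe sets were higher and 5 lower, or 11.4% each way against 4.53% and 6.32% of all probe sets. After median centring 5 were higher and 3 lower, where 5.56% of all were higher and 2.56% lower. Quantile normalization also gave 5 and 3, where 6.0% of all were higher and 8.75% lower. The next 3 genes are given in their probe sets of smallest p. PPP2R1A, a scaffold of protein phosphatase 2A, differed by 0.94 (SE 0.18), and its 3 probe sets ran from 0.44 to 0.94. PRKAR1A, a regulatory subunit of protein kinase A, differed by 0.70 (SE 0.17), and its other probe set by 0.32. PRKAR2B, another regulatory subunit of that kinase, differed by -0.76 (SE 0.12), and its 3 probe sets ran from -0.76 to -0.20. The limma adjusted p was 0.296 for each gene in these probe sets of smallest p.

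Genes of pump anchoring and turnover, 16 of 17 measured, had a median of -0.01 with 8 genes on either side of 0. This even split lay above the share of all genes with 1 symbol that were above 0, 34.97%. In this list 3 of 39 probe sets (7.69%) were higher and 2 (5.13%) lower at an unadjusted p under 0.05, against 4.53% and 6.32% of all. After median centring these counts were 3 and 0, where 5.56% of all were higher and 2.56% lower. After quantile normalization they were 2 and 2, where 6.0% of all were higher and 8.75% lower. In their probe sets of smallest p, SGK1, a kinase that raises pump and sodium channel activity, differed by 0.74 (SE 0.17) and ANK3 (ankyrin-G) by -0.77 (SE 0.27). The 3 probe sets of SGK1 ran from 0.13 to 0.74 and the 8 of ANK3 from -0.86 to -0.06, and SPTAN1 (alpha-spectrin) differed by 0.82 in one probe set and -0.28 in another. Related P-type ATPases, 12 of 12 measured, had a median of -0.13 with 11 genes below 0. Of their 35 probe sets, 19 (54.3%) followed the tags, beside 37.5% of probe sets with 1 symbol. At an unadjusted limma p under 0.05, 4 of the 35 (11.4%) were lower and 0 higher, against 6.32% and 4.53% of all. The lower ones were 1 after median centring, where 2.56% of all were lower, and 2 after quantile normalization, where 8.75% were. ATP4B, ATP2B4 and ATP2C1 had the smallest p there, at -0.25, -0.17 and -0.56, and ATP2B4 and ATP2C1 also had probe sets above 0, up to 0.34 and 0.16. In both lists the smallest limma adjusted p was 0.296.

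**Figure D3:**
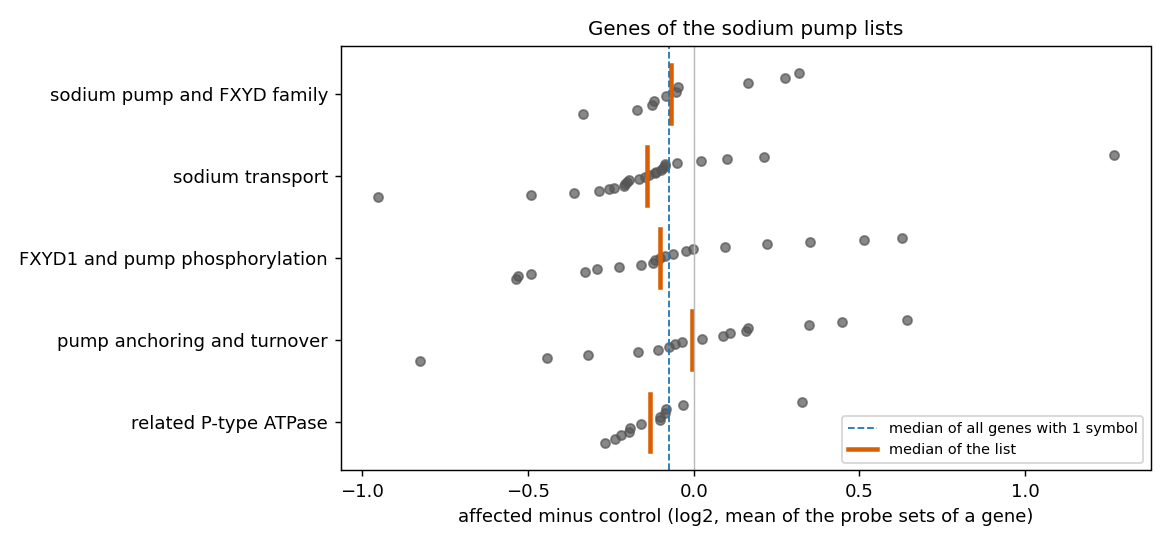
Affected minus control on the log2 scale (horizontal axis) for each measured gene of the 5 lists, as the mean of its probe sets. Points are genes, orange bars the medians of the lists, from -0.14 to -0.01, and the dashed line is the median of all genes with 1 symbol, -0.07.

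The genes whose pattern over the 6 dogs was most like that of each member were sought among 7254 probe sets with 1 symbol and a range of at least 1. For ATP1B1 these were HINT3 (Pearson r = 0.978), FEZ2 (0.974), SNRPF (0.971), PSMD9 (0.969) and GZF1 (0.950). For FXYD1 they were LOC474850 (0.991), C9H17orf80 (0.986), MPND (0.971), LIMS1 (0.957) and IL15 (0.946). With 6 points and so many candidates such correlations are a description. The likeness did not extend to all probe sets of these genes. The other FEZ2 probe sets correlated with ATP1B1 at -0.04 to 0.60, and those of LIMS1 with FXYD1 at -0.26 to 0.70.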

How the data were processed

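The authors deposited 1 table of log2 values. GCRMA and MAS5 are named, without role, order or version, in the submitters' processing notes, and the values (-8.35 to 10.7) were read as log2 on that basis. Each probe set has a median of 0 (largest absolute median 5e-07), so values hold differences between arrays and no level. The genome build is not given in the sources used here.

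The groups were compared in R 4.3.3 with limma 3.58.1 (group only, 4 residual and 1.13 prior degrees of freedom, two-sided) over all 42924 probe sets that are no array controls (111 controls left out), unfiltered, with Benjamini-Hochberg adjustment and a threshold of 0.05. Intervals are 95% and moderated. Each array was taken as 1 dog, since its title says biological replicate. The number of arrays limits the precision. Symbols came from the array's annotation: 29254 probe sets had 1, 439 several and 13231 were not listed. Of those with 1, 27680 matched a RefSeq gene record (UU_Cfam_GSD_1.0), with 0 changed symbols. Named genes were both members, all measured family genes, the 3 genes of smallest p in each other list and the 5 most alike per member. The 5 pathway lists and the 10 marker lists, like the members, were chosen with earlier results of these data known. Of the marker lists, those for cardiomyocytes, fibroblasts, smooth muscle, macrophages and atrial muscle are given beside results. The fit was also run on simulated data with independent noise and no shift of whole arrays. The differences planted there were larger than those of the members, so it does not show how the fit treats differences of their size.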

Additional observations from a re-analysis of the deposited data

How the results depend on the processing

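Both FXYD1 probe sets kept their direction in all 14 alternatives (0.05 to 0.26 and 0.10 to 0.29), with limma adjusted p from 0.367 to 0.793 and from 0.298 to 0.735. ATP1B1 ran from -0.15 to 0.094 with single arrays left out, and was 0.16 for affected 2 alone and 0.025 after median centring; its limma adjusted p was 0.506 to 0.938. FXYD1 minus ATP1B1 ran from -0.019 to 0.36 with single arrays left out. Leaving out the setting with affected 2 alone, the widest limits were -0.60 to 0.49 for ATP1B1. For the FXYD1 probe sets they were -0.30 to 0.60 and -0.23 to 0.60. Only without affected 1 did the FXYD1 intervals lie wholly above 0. With only probe sets of a range of at least 1, no member was left to test.

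The count of called probe sets was 1 as reported. Filters on the range use the same 6 arrays, and the range includes the difference between the groups, so counts after such filters are no independent check. The count was 6 without the 40% of smallest range (1757 higher and 771 lower at an unadjusted limma p under 0.05) and 91 with a range of at least 1. It was 0 after quantile normalization (2574 and 3755), with age (2919 and 9745), for affected 2 alone (1155 and 458), where the 3 controls alone give the spread and the lone dog is assumed to vary like them, and with the replicate block (2193 and 2260), and 0 to 5 with single arrays left out, 0 without control 2 (3100 and 12212) or control 3 (1097 and 1766), 2 without control 1 or affected 2 and 5 without affected 3. Same-numbered arrays deviated together by correlations of 0.272, 0.147 and 0.022, and differently numbered ones by -0.233 to 0.045. The titles number biological replicates and name no pairs, so the main fit took none, and shared variation by number was not tested. With the block ATP1B1 was at -0.05 and FXYD1 at 0.14 and 0.18.

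List medians moved beyond the spread between dogs in the settings given next. After median centring they were 0.0050 for the pump and FXYD family, -0.029 for phosphorylation, 0.067 for anchoring and -0.058 for related ATPases. This centring moves every difference between the groups by the same amount, and the median difference over all probe sets went from -0.08 to -0.0071. After quantile normalization the family was at -0.019 and related ATPases at -0.094. Without the 40% of smallest range they were 0.11 for the family, 0.10 for anchoring and -0.23 for related ATPases. Taking for each gene the probe set of largest range, they were -0.0014 for the family, -0.16 for phosphorylation, -0.046 for anchoring and -0.21 for related ATPases. With single arrays left out the medians, whether or not they moved beyond that spread, ran from -0.096 to -0.017 (family), -0.23 to -0.095 (sodium transport), -0.11 to -0.067 (phosphorylation), -0.057 to -0.0040 (anchoring) and -0.14 to -0.10 (related ATPases). Apart from the common shift under median centring, the cause of these moves was not tested. Array weights did not converge and were not used.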
